A study of Mus musculus with 6 samples.

Results

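Genes of lipoprotein assembly and dietary fat absorption were described in small intestinal organoids of the mouse, which are epithelial structures grown in culture. The 10 genes were chosen by name from the platform's gene symbols, though with earlier results of these data known. They are the apolipoprotein genes Apoa1, Apoa4, Apob and Apoc3, the lipid transfer gene Mttp, the fatty acid-binding protein genes Fabp1 and Fabp2, and the acyltransferase genes Dgat1, Dgat2 and Mogat2. All 10 were found among the 19057 genes named on the array. There were 3 control arrays of organoids from Villin-Cre mice and 3 knockout arrays of organoids from Villin-Cre, Snai1fl/fl mice, in which both Snai1 alleles are floxed. The Villin promoter drives Cre in intestinal epithelium, so the controls carry Cre as well, and organoids of both groups received 0.5 µM tamoxifen for 24 hours before harvest. The series title asks how Snai1, a zinc-finger repressor, bears on cell lineage allocation and stem cell maintenance. The labels give no age of the mice. They also leave unsaid how the 3 organoid samples of a group relate to each other, as animals, cultures or wells, so the p-values rest on a spread that could be technical.

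Enterocytes take up fatty acids and monoglyceride from digested fat, bind the fatty acids to small cytosolic carrier proteins and rebuild triglyceride at the endoplasmic reticulum. Mogat2 joins a fatty acid to monoglyceride, and Dgat1 and Dgat2 add the last one. Mttp loads triglyceride onto the Apob protein as it is made, and the particle leaves the cell as a chylomicron that also carries smaller apolipoproteins.

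Every array held 45281 probe values on a log scale, taken as log2, with the same distribution on all arrays. The lowest value was 7.71, the median 7.87, the upper quartile 8.27 and the highest 14.78. Values near the bottom are compressed, so folds of dim genes are understated. The number of arrays limits the precision. Both Snai1 probes lay near the median on every array, at 7.82 to 7.94 on control and 7.83 to 7.96 on knockout arrays, so they could not show a loss of the transcript and give no check of the labels. Of 5 epithelial markers all lay above the median, with a mean over the list of 11.59 to 11.78 on control and 11.59 to 11.79 on knockout arrays. Fibroblast markers averaged 7.85 to 7.86 on control and on knockout arrays, with 4 of 5 below the median of all probes.

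None of the 10 genes passed limma's test over all genes (Benjamini-Hochberg adjusted p under 0.05), by which 0.131% of all genes were called. With the replicate number as a block none passed either, against 0.0472% of all genes. The mean was lower on knockout arrays for 8 of the 10, among them Fabp1 and Fabp2 at the floor of the scale. Of the 8 genes above the upper quartile it was lower for 6. Over all genes it was lower for 9664 of 19057. At an unadjusted p under 0.05 in limma's test, 5 of the 10 were lower and 0 were higher, against 3.34% of all genes lower by that rule and 6.59% of the 6969 genes brighter than the upper quartile. These 5 were Apoa1, Apoc3, Dgat1, Dgat2 and Mogat2. The count fell when single arrays were left out. It was 2 without control replicate 1 (Apoc3 and Mogat2) and 2 without control replicate 3 (Dgat2 and Mogat2). It was 1 without knockout replicate 2 (Mogat2) and 2 without knockout replicate 3 (Apoa1 and Mogat2). Such fits have fewer arrays. In the full fit Dgat1, Apoc3, Apoa1 and Dgat2 lay near the threshold (unadjusted p = 0.038, 0.040, 0.046 and 0.047, limma). Without knockout replicate 2 these 4 genes still differed by -0.21, -0.29, -0.22 and -0.17. With the replicate block the count was 4, without Apoc3, against 5.04% of all genes lower by that rule. In the full fit the differences of the 5 genes lay between -0.28 and -0.17 on the log2 scale. That is 1.13-fold to 1.21-fold higher in control, and their adjusted p lay between 0.53 and 0.68 (limma). Over the 10 genes the median difference was -0.14, beside -0.00057 over all genes. It was -0.20 without control replicate 2, -0.09 without control replicate 1 and -0.09 without control replicate 3. The genes share arrays and are not independent of each other.

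**Figure D1:**
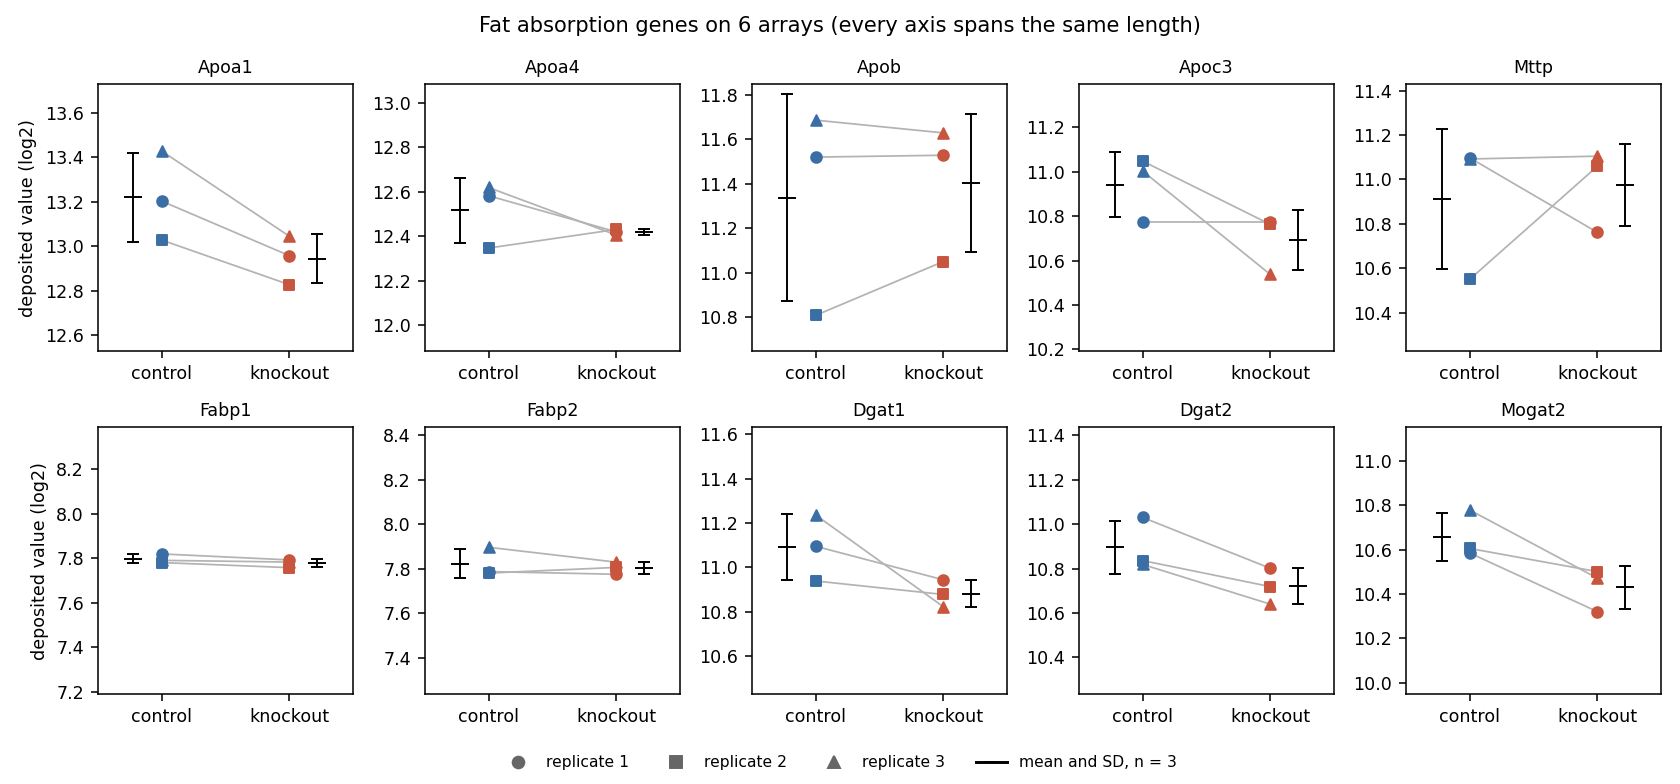
Deposited log2 value of each of the 10 genes (vertical axis) on the 3 control arrays (blue) and the 3 knockout arrays (red); grey lines join arrays of the same replicate number, and black bars give the mean and SD (n = 3). Dgat2 and Mogat2 are the genes whose groups do not overlap, while Apob spans 0.88 within the control group and Fabp1 and Fabp2 lie flat near the bottom of the scale.

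Apoa1 encodes the main protein of high-density lipoprotein and also travels on chylomicrons. It read 13.20, 13.03 and 13.43 on control replicates 1 to 3 and 12.96, 12.83 and 13.05 on knockout replicates 1 to 3. Knockout replicate 3 lay just above control replicate 2, so the groups overlapped at that point alone. The difference was -0.28 ± 0.11 (SE, 95% interval -0.55 to -0.01; adjusted p = 0.68, limma), and control exceeded knockout 1.21-fold. Within pairs of the same replicate number the knockout array was lower in 3 of 3, by differences of -0.25, -0.20 and -0.38. The difference was -0.17 without control replicate 3. The genes lower in all 3 pairs were Apoa1, Dgat1, Dgat2, Mogat2 and Fabp1, the last at the floor of the scale where its sign says nothing about the gene. The same held for 15.1% of all genes.

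Apoc3, which slows the clearance of triglyceride-rich particles, is the next protein-coding gene after Apoa1 on the chromosome, and Apoa4 follows it. Apoc3 read 10.78, 11.05 and 11.00 on control replicates 1 to 3. On knockout replicates 1 to 3 it read 10.78, 10.76 and 10.54. The control and knockout arrays of replicate 1 had the same value, and the other pairs differed by -0.28 and -0.47. The difference of means was -0.25 ± 0.10 (SE, 95% interval -0.48 to -0.02; adjusted p = 0.66, limma). With the replicate number as a block the interval was -0.50 to 0.0020 and so included 0.

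Apoa4, a chylomicron protein made mostly by the intestine, read 12.58, 12.35 and 12.62 on control and 12.42, 12.43 and 12.41 on knockout replicates 1 to 3. The knockout values spanned 0.025 and lay inside the range of the controls, which was 0.27 wide. The difference was -0.10 ± 0.07 (SE, 95% interval -0.28 to 0.08; adjusted p = 0.90, limma). It was -0.18 without control replicate 2, -0.06 without control replicate 1 and -0.05 without control replicate 3. The gene has 3 probes, and the differences of the others were -0.23 ± 0.10 for ILMN_2754104 and -0.02 ± 0.09 for ILMN_2834123 (SE). On all 3 probes replicates 1 and 3 were lower in the knockout and replicate 2 was higher, and none passed limma's test over all probes, by which 0.0883% of probes were called.

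**Figure D2:**
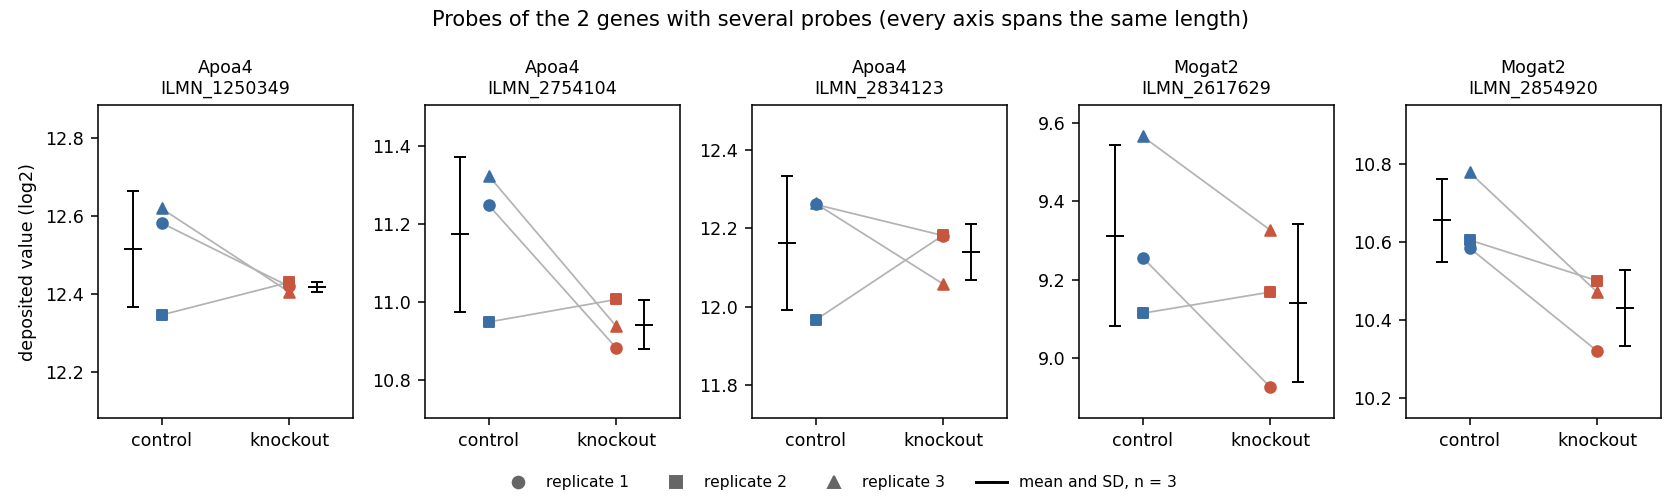
Deposited log2 values (vertical axis) of the 3 probes of Apoa4 and the 2 probes of Mogat2 on control (blue) and knockout (red) arrays, with lines between arrays of the same replicate number and the mean and SD (n = 3) in black. The mean is lower on knockout arrays for all 5 probes, but the groups stand apart on the brighter Mogat2 probe only.

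Apob encodes the scaffold protein of chylomicrons, of which each particle carries a single copy. It read 11.52, 10.81 and 11.69 on control replicates 1 to 3 and 11.53, 11.05 and 11.63 on knockout replicates 1 to 3. Replicate 2 was low in both groups, and the groups overlapped throughout. The difference was 0.06 ± 0.27 (SE, 95% interval -0.59 to 0.72; adjusted p = 0.998, limma). The differences within pairs were small beside the spread between replicates, at 0.01, 0.24 and -0.06. With the replicate number as a block the SE was 0.07 in place of 0.27 and the interval ran from -0.11 to 0.24. The sign depended on single arrays, with a difference of -0.20 without control replicate 2 and -0.05 without knockout replicate 3.

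Mttp, the transfer protein that loads lipid onto Apob, read 11.10, 10.55 and 11.09 on control and 10.76, 11.06 and 11.10 on knockout replicates 1 to 3. Control replicate 2 and knockout replicate 1 were the low arrays, so the pairs pointed in opposite directions, at -0.34, 0.51 and 0.01. The difference was 0.06 ± 0.17 (SE, 95% interval -0.37 to 0.49; adjusted p = 0.99, limma). It was -0.12 without control replicate 2 and -0.0030 without knockout replicate 3.

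RefSeq's table of GRCm38.p6 held a promoter window for 6 of the 10 genes. Apoc3, Dgat1, Dgat2 and Mogat2 had no window. Of the 5 genes lower at an unadjusted p under 0.05 in limma's test, Apoa1 alone could therefore be searched. The windows of Apoa1, Apoa4, Apob and Mttp are shown because these genes tended to vary together across arrays (r from 0.62 to 0.93 between them). Another reason is that Snail proteins bind the E-box CAGGTG. Each line gives the 250 bases before the annotated start, 5′ to 3′ on the strand of the gene. Capitals mark CAGGTG or its reverse complement CACCTG, and TATAAA, the TATA motif.
Apoa1 (chr9:46228380-46228629, plus strand): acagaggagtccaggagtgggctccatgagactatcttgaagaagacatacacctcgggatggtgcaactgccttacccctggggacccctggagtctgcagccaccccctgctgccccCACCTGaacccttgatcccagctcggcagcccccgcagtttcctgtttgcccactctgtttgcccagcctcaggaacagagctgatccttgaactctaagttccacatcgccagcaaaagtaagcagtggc
Apoa4 (chr9:46240594-46240843, plus strand): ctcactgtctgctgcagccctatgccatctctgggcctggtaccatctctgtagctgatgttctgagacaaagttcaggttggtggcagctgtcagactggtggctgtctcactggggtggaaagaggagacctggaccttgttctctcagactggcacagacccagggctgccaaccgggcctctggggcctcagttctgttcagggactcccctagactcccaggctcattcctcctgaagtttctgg
Apob (chr12:7977427-7977676, plus strand): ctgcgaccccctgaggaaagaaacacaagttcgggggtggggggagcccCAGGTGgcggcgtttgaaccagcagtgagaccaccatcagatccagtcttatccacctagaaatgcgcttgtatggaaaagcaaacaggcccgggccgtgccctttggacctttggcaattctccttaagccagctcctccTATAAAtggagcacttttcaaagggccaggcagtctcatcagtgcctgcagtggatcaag
Mttp (chr3:138143419-138143668, minus strand): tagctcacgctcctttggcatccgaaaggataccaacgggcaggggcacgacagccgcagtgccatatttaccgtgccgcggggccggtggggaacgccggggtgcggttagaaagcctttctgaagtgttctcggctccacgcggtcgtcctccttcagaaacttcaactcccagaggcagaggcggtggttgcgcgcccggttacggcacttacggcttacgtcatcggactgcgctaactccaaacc

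The letters CAGGTG, on either strand, occurred in the windows of Apoa1 and Apob, which is 2 of the 6, and in 17.3% of 32536 distinct windows of the same length. In Apoa1 they lay 131 to 126 bases before the start on the opposite strand, and in Apob 201 to 196 bases before it on the strand of the gene. TATAAA occurred in Apob and in Fabp1 and in 12.3% of all windows. CAAAGTC, the core of the motif bound by HNF4 receptors, and AGATAA, which factors of the Gata family bind, were in none of the 6 and in 3.87% and 9.97% of all windows. GTTAAT, part of the HNF1 motif, and TTTATG, a CDX motif, were in 1 of the 6 each, that of Fabp1, and in 6.47% and 10.8% of all windows. All were searched on both strands, no marked motif overlapped another, and a match is a run of letters, not a measured binding site. Each search took an exact string, so a window without it can still hold a site of that factor in other letters. Of the genes holding CAGGTG, Apoa1 differed by -0.28 and Apob by 0.06 between knockout and control.

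The acyltransferase genes that rebuild triglyceride were all lower on average in the knockout. Mogat2, whose enzyme starts the monoglyceride route used by enterocytes, read 10.58, 10.61 and 10.78 on control and 10.32, 10.50 and 10.47 on knockout replicates 1 to 3. All knockout values lay below all control values. The difference was -0.23 ± 0.07 (SE, 95% interval -0.40 to -0.05; adjusted p = 0.53, limma), and control exceeded knockout 1.17-fold. A second, dimmer probe of Mogat2, ILMN_2617629, read 9.26, 9.11 and 9.57 on control and 8.92, 9.17 and 9.33 on knockout replicates 1 to 3. On that probe the groups overlapped, replicate 2 was higher in the knockout, and the difference was -0.17 ± 0.15 (SE).

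Dgat2 is the next protein-coding gene beside Mogat2 on the chromosome and belongs to the same enzyme family. It read 11.03, 10.84 and 10.82 on control and 10.80, 10.72 and 10.64 on knockout replicates 1 to 3. Here too the groups did not overlap, though the highest knockout value lay only just below the lowest control value. The difference was -0.17 ± 0.07 (SE, 95% interval -0.35 to -0.0037; adjusted p = 0.68, limma), and -0.11 without control replicate 1. With knockout below control throughout, Dgat2 and Mogat2 were 2 of the 10 genes, against 5.85% of all genes and 6.54% of the genes brighter than the upper quartile.

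Dgat1, an unrelated enzyme that catalyses the same last step and is abundant in the intestine, read 11.10, 10.94 and 11.24 on control and 10.94, 10.88 and 10.82 on knockout replicates 1 to 3. Knockout replicate 1 lay barely above control replicate 2. The difference was -0.21 ± 0.08 (SE, 95% interval -0.40 to -0.02; adjusted p = 0.65, limma), and control exceeded knockout 1.16-fold. The pairs differed by -0.15, -0.06 and -0.41, and the difference of means was -0.14 without control replicate 3.

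Fabp1 and Fabp2, the liver-type and intestinal-type carriers of fatty acids in the cytosol, gave no usable signal from their single probes. Fabp1 read 7.78 to 7.82 on control and 7.76 to 7.79 on knockout arrays, and Fabp2 7.78 to 7.90 and 7.77 to 7.83. Their means were higher than 3.66% and 21.8% of all probes. Differences of -0.02 ± 0.02 and -0.02 ± 0.04 (SE; adjusted p = 0.95 and 0.99, limma) are therefore at the floor of the scale, and no change of either gene was detectable. For Fabp2 the difference was 0.02 without control replicate 3. The other 8 genes lay above the upper quartile of all probes, and their median difference was -0.19.

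**Figure D3:**
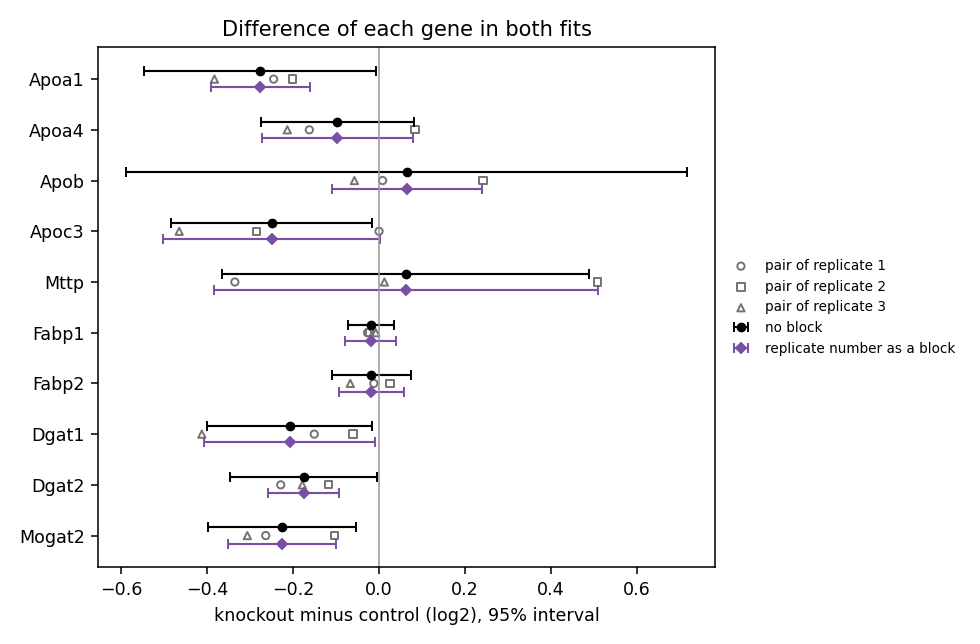
Knockout minus control difference of each gene on the log2 scale (horizontal axis) with its 95% interval in the fit without a block (black) and with the replicate number as a block (purple); open symbols give the 3 pairs. Intervals of Apoa1, Dgat1, Dgat2 and Mogat2 lie below 0 in both fits, although none passed after adjustment over all genes, and the interval of Apob shrinks most with the block.

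Some of the genes also varied together inside the groups. After each value was set against the mean of its own group, Apob deviated by -0.53 on control replicate 2 and -0.35 on knockout replicate 2, and by 0.35 and 0.23 on the arrays of replicate 3. Apoa1 had the same pattern at smaller size, with -0.19 and -0.12 for replicate 2 and 0.21 and 0.10 for replicate 3. These deviations of Apoa1 and Apob correlated at r = 0.93 over the 6 arrays, those of Apoa4 and Dgat1 at r = 0.88 and those of Apoa4 and Mttp at r = 0.84. The neighbours Dgat2 and Mogat2 ran opposite to each other, at r = -0.69, and Apoc3 ran opposite to Apob, at r = -0.52. Of the 28 pairs among the 8 brighter genes, 11 had r over 0.5 and 7 had r under 0. These values describe 6 arrays that share processing and, in pairs, a replicate number. Over all genes the deviations also correlated within replicate numbers 1, 2 and 3, at r = 0.35, 0.33 and 0.46. The share of such pairs among other genes was not counted, so the varying together is not shown to be particular to these genes.

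**Figure D4:**
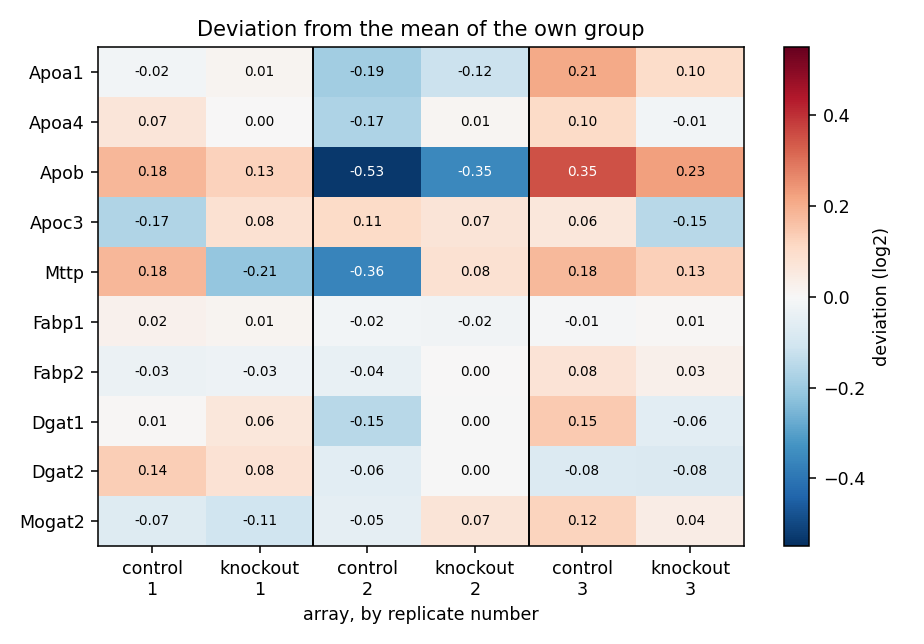
Deviation of each gene (rows) on each array (columns, ordered by replicate number) from the mean of its own group, in log2 units, as numbers and colour (red above, blue below). Apob and Apoa1 are low on both arrays of replicate 2 and high on both arrays of replicate 3, whereas Mttp is low on control replicate 2 (-0.36) and not on knockout replicate 2 (0.08).

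Enterocyte markers ran with some of the 10 genes across arrays and not with others. The mean over 6 markers (Alpi, Sis, Anpep, Slc5a1, Lct and Krt20) was 11.46, 11.04 and 11.64 on control replicates 1 to 3 and 11.20, 11.22 and 11.66 on knockout replicates 1 to 3. It was lowest on control replicate 2, where Apoa1, Apob, Mttp, Apoa4 and Dgat1 were at their lowest among the controls as well. Apoc3 was at its highest on that array, and Dgat2 and Mogat2 were not at their lowest. Among knockout arrays the marker mean was highest on replicate 3. There Apoa1, Apob and Mttp were at their highest in the knockout, but Apoa4, Apoc3, Dgat1 and Dgat2 were at their lowest. Between the groups 4 of the 6 markers were lower and 2 higher on average, with a median difference of -0.03, and none had an unadjusted p under 0.05. All 5 stem cell markers were higher on average in the knockout, as were 9393 of all 19057 genes. Their list mean was 9.18 to 9.46 on control and 9.40 to 9.66 on knockout arrays. Olfm4 differed by 0.45 without overlap (adjusted p = 0.48, limma). Lgr5 differed by 0.42 and Axin2 by 0.28, and their groups overlapped. Over all 19057 genes, 1181 were higher and 1115 lower in the knockout without overlap. Ascl2 and Smoc2 differed by only 0.04 ± 0.06 and 0.01 ± 0.04 (SE). Of 5 enteroendocrine markers 3 were lower and 2 higher, with a median difference of -0.15. Chga, a granule protein, differed by -0.17 without overlap of the groups (adjusted p = 0.39, limma), and Sct and Chgb by -0.15 each. Gcg differed by 0.23 (adjusted p = 0.93, limma) and was higher in 3 of 3 pairs, and Neurod1 differed by 0.02. The list mean was 9.51 to 9.63 on control and 9.43 to 9.65 on knockout arrays. Of 4 Paneth cell markers 2 were lower, Lyz1 at -0.10 without overlap (adjusted p = 0.52, limma) and Ang4 at -0.22 with overlap. Mmp7 and Itln1 differed by 0.08 and 0.05. The Paneth list mean was 11.27 to 11.53 on control and 11.06 to 11.62 on knockout arrays. Of 5 goblet cell markers 3 were lower, with Clca1 at -0.07 and the dim genes Fcgbp and Agr2 at -0.02 and -0.01. Muc2 and Tff3 differed by 0.29 and 0.10 (adjusted p = 0.94 and 0.99, limma). The goblet list mean was 9.49 to 9.91 on control and 9.47 to 9.96 on knockout arrays. Of 4 tuft cell markers 1 was lower, and the list mean was 7.89 to 7.95 and 7.95 to 7.97. No tuft marker lay above the upper quartile, so these small differences lie near the floor of the scale. Hepatocytes share the apolipoprotein genes. Of 5 hepatocyte markers, Alb, Ahsg, Fgb and Tat lay below the median of all probes. Cyp2e1 lay above it, at 8.15 ± 0.09 on control and 8.02 ± 0.04 on knockout arrays (SD, n = 3), with no overlap and a difference of -0.13 (adjusted p = 0.67, limma). The list mean was 7.86 to 7.91 on control and 7.83 to 7.84 on knockout arrays. In bulk samples, fewer cells of a type and less RNA per cell cannot be told apart, and the part of cell types in the differences was not tested.

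Some markers of gut region had lower means in the knockout. Pdx1, a transcription factor of the duodenum, read 8.88, 9.05 and 8.94 on control and 8.62, 8.51 and 8.62 on knockout replicates 1 to 3. Onecut2, also a factor of the proximal intestine, differed by -0.27, and the groups did not overlap for either gene (adjusted p = 0.14 and 0.47, limma). Over all genes 5.85% were lower without overlap. Gata4 differed by -0.03 and Cybrd1 by 0.01. Over these 4 proximal markers the mean was 9.02 to 9.08 on control and 8.84 to 8.92 on knockout arrays. The distal markers Fabp6 and Slc10a2 averaged 7.84 to 7.93 and 7.85 to 7.90, near the median of all probes. The part of region in the differences of the fat absorption genes was not tested.

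The rest of the pathway was divided in direction. Of 94 further genes in 7 lists, 85 were measured, 48 with a lower and 37 with a higher mean in the knockout. Their median difference was -0.02, and none passed over all genes. At an unadjusted p under 0.05 in limma's test 6 were lower and 3 higher, against 3.34% of all genes lower and 3.88% higher. Of the 85 genes 58 lay above the upper quartile, where 6.59% of genes were lower by that rule.

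**Figure D5:**
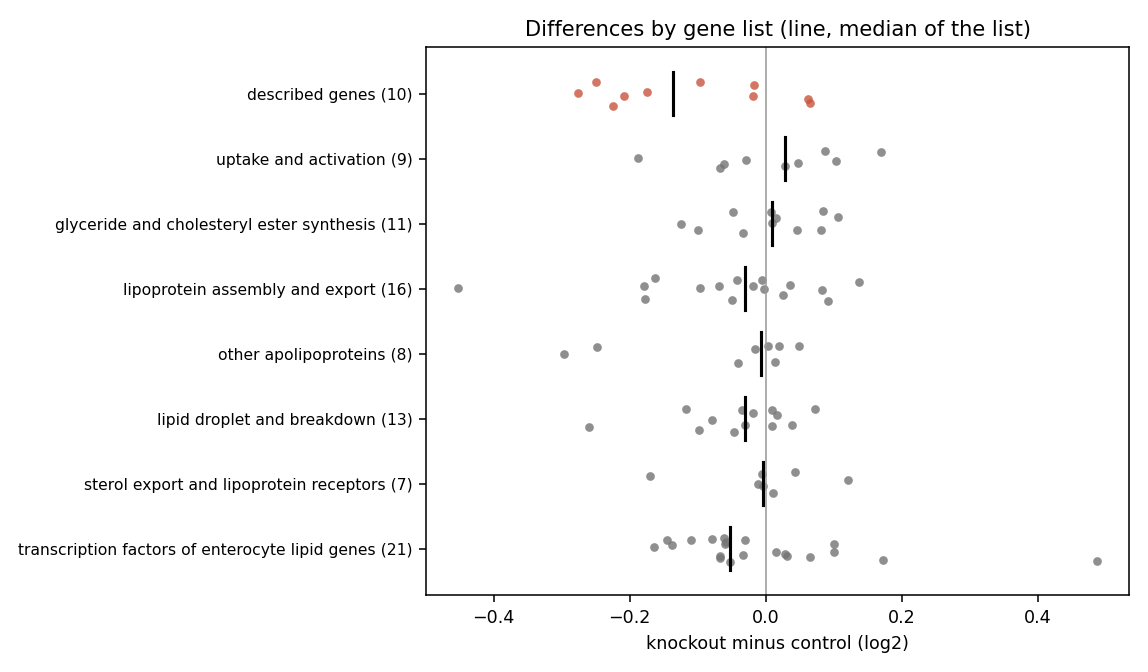
Knockout minus control difference (horizontal axis, log2) of every measured gene, for the 10 fat absorption genes (red, top) and 7 lists of other pathway genes (grey), with the number measured in brackets and the median of each list as a black line. The median is -0.14 for the 10 genes and between -0.05 and 0.03 for the 7 lists.

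Among the other apolipoproteins, 4 of 8 were lower and 4 higher on average. Apoc2, which activates lipoprotein lipase, read 8.44, 8.36 and 8.48 on control and 8.14, 8.09 and 8.16 on knockout replicates 1 to 3. The groups stood clear of each other, with a difference of -0.30 ± 0.04 (SE; adjusted p = 0.11, limma). It passed when the variance was modelled with a trend on the mean (adjusted p = 0.019, limma). Apol7a differed by -0.25 ± 0.07 and Apoc1, at the floor of the scale, by -0.04 (adjusted p = 0.43 and 0.79, limma). Apoa5, which follows Apoa4 on the chromosome, lay at the floor as well.

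In lipoprotein assembly and export, 11 of 16 genes were lower and 5 higher on average. A1cf, the RNA-binding partner of the Apob mRNA editing enzyme, had the largest difference of the list. It read 9.13, 8.74 and 8.98 on control and 8.53, 8.43 and 8.54 on knockout replicates 1 to 3, without overlap. The difference was -0.45 ± 0.10 (SE; adjusted p = 0.31, limma), and A1cf passed with the variance trend (adjusted p = 0.018, limma). Apobec1, the editing enzyme itself, named after its values were seen, was lower in 3 of 3 pairs by -0.12, -0.12 and -0.25 (adjusted p = 0.92, limma). Tm6sf2, which acts in lipidation of lipoprotein particles, and Sar1a, a coat GTPase of export vesicles, differed by -0.18 each (adjusted p = 0.81 and 0.82, limma).

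In uptake and activation, 4 of 9 genes were lower and 5 higher. Acsl3, an acyl-CoA synthetase, differed by 0.17 ± 0.05, Npc1l1, the cholesterol uptake protein, by -0.19 ± 0.09 and Scarb1, a scavenger receptor, by 0.05 ± 0.03 (SE; adjusted p = 0.55, 0.76 and 0.89, limma). In glyceride synthesis 4 of 11 were lower and 7 higher, with the phosphatidate phosphatase gene Lpin3 at -0.10, the glycerol phosphate acyltransferase gene Gpat4 at 0.11 and Lpcat3, which remodels phospholipids, at 0.08.

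Of the lipid droplet and lipolysis genes 8 of 13 were lower and 5 higher. Cideb, which acts in lipoprotein lipidation in liver and gut, read 11.44, 11.42 and 11.48 on control and 11.42, 11.08 and 11.07 on knockout replicates 1 to 3. Knockout replicate 1 lay close to the controls and the others well below. The difference was -0.26 ± 0.10 (SE; adjusted p = 0.65, limma) and reached -0.38 without knockout replicate 1 (adjusted p = 0.040, limma). Abhd5, a cofactor of triglyceride lipase, differed by -0.10 and Lipe, hormone-sensitive lipase, by -0.04. Of the sterol export and receptor genes 4 of 7 were lower, with the sterol exporters Abcg5 and Abcg8 at 0.12 and 0.04 and Vldlr, a lipoprotein receptor, at -0.17.

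Of 21 transcription factors that act on enterocyte lipid genes 13 were lower and 8 higher. Pparg, a lipid-sensing nuclear receptor, read 9.92, 9.91 and 9.92 on control and 9.74, 9.79 and 9.73 on knockout replicates 1 to 3, a difference of -0.16 ± 0.02 (SE; adjusted p = 0.14, limma). Nr5a2, a nuclear receptor of gut epithelium, read 9.55, 9.19 and 9.47 on control and 9.95, 9.89 and 9.83 on knockout replicates 1 to 3. All its knockout values lay above all control values, and the difference was 0.49 ± 0.09 (SE; adjusted p = 0.27, limma, and 0.028 with the variance trend). Cdx2, which sets intestinal identity, differed by 0.10 ± 0.04 (SE; adjusted p = 0.60, limma).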

How the data were processed

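RNA from 6 samples of mouse small intestinal organoids was converted to biotinylated cRNA and measured on single-colour Illumina arrays, per the labels' protocols. The deposited values were taken as log2 and used unaltered. Once sorted, arrays differed by no more than 0.0019, as after quantile normalization by the authors. Not given in the sources used here are the software, background correction and log base.

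The platform annotation paired 34885 probes with 1 gene and 18 with several and listed none for 10378, and 34807 matched the GRCm38.p6 gene table by gene number. Each gene took its brightest probe by the mean over 6 arrays. The test of knockout against control used limma 3.58.1 under R 4.3.3 (lmFit, eBayes, Benjamini-Hochberg adjusted p under 0.05 over 19057 genes), and the test was checked on simulated data. Groups came from the titles. Deviations from the group means correlated at r = 0.35, 0.33 and 0.46 within replicate numbers 1, 2 and 3, and 6 of 6 arrays matched best with their own number, so the numbers were taken to pair arrays, which the labels do not explain.

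The genes, lists and tests were chosen with earlier results of these data known. Named besides the 10 genes are the 3 genes of lowest p in each pathway list, the 5 genes of most like pattern and markers from the cell type lists. Apobec1, Apoa5 and the markers singled out were chosen after their values were seen. Alternatives were the replicate block, cyclic loess, centring, a filter on dim genes, averaged probes, trended and robust variances, array weights and leaving out each array.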

Additional observations from a re-analysis of the deposited data

How the results depend on the processing

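None of the 10 genes was called under any of the 14 alternatives (13 for Fabp1 and Fabp2, which a filter on dim genes removed). With the replicate block limma called 0 of the 10 genes and 9 of all genes, in place of 0 and 25, and it changed no call of the 10. The lowest adjusted p among them was then 0.16, for Apoa1, with an SE of 0.04 in place of 0.11. Apoa1, Apoa4, Apoc3, Dgat1, Dgat2 and Mogat2 were lower in the knockout under every alternative run. Fabp1 was too, but at the floor of the scale, where its sign says nothing about the gene. Leaving out each array moved Apoa1 between -0.37 and -0.17 and Apoa4 between -0.18 and -0.05. It moved Dgat1 between -0.28 and -0.14 and Dgat2 between -0.22 and -0.11. The count of the 10 lower at an unadjusted p under 0.05 was 5 as fitted, 3 with the variance trend and 3 with robust variances. It was 1 to 4 when each array was left out. With the probes of a gene averaged the count was 4, without Mogat2, which then differed by -0.20 (unadjusted p = 0.11, limma). Apob changed sign with array weights (-0.012). Leaving out each array in turn moved Apob between -0.20 and 0.24, Mttp between -0.12 and 0.17 and Fabp2 between -0.038 and 0.020, and the median over the 10 genes between -0.20 and -0.09. The count over all genes was 41 among genes above the upper quartile, 60 with the variance trend, and 4 to 23 when each array was left out. In the rest of the pathway the trend called 3 genes, A1cf, Apoc2 and Nr5a2, in place of 0, and leaving out each array called 0 to 1, the 1 being Cideb. The causes were not tested. Signal over background limits Fabp1 and Fabp2, whose probes lay at the floor.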

Other observations

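The genes whose values ran most like the mean of the 10 fat absorption genes over the 6 arrays were, among 6961 other genes above the upper quartile of brightness, Napa (r = 0.99), Galns (r = 0.98), Lipa (r = 0.98), Anpep (r = 0.97) and Clic1 (r = 0.97). Napa encodes a vesicle fusion adaptor, Galns and Lipa encode lysosomal hydrolases, Anpep a brush border peptidase and Clic1 a chloride channel protein. The mean of the 10 genes was 10.75, 10.57 and 10.84 on control replicates 1 to 3 and 10.61, 10.58 and 10.63 on knockout replicates 1 to 3. Control replicate 2 was the lowest array of all, and the knockout arrays lay between it and the other controls. Anpep had this shape, with 9.33, 8.80 and 9.57 on control and 8.97, 8.84 and 9.16 on knockout replicates 1 to 3. None of the 5 passed limma's test over all genes (adjusted p from 0.75 for Galns to 0.92 for Anpep). These were the best of many genes over 6 arrays and are a description.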
